A study of Homo sapiens with 30 samples.

Results

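The genes described here are the CDK inhibitors and the D-type cyclins, which set whether a cell passes the restriction point late in G1. They are 10 of the 60675 gene identifiers in the expression table, taken by symbol: CDKN1A, CDKN1B and CDKN1C of the CIP/KIP family, CDKN2A, CDKN2B, CDKN2C and CDKN2D of the INK4 family, and CCND1, CCND2 and CCND3. RNA was sequenced from A549, an established human cell line of lung carcinoma origin, after 24 h with an ethanol extract of a Korean herbal formula or with the solvent dimethyl sulfoxide alone, called vehicle. The doses were 20, 100 and 500 µg/mL. There were 3 libraries at each dose of Soshiho-tang and of Yijin-tang, 2 at each dose of Okbyeongpung-san, 1 at each dose of Soyo-san and 3 of vehicle. Sources differ on the vehicle, which is 0.1% DMSO in the labels but 2% DMSO in the text of the series. A single library allows no test, so Soyo-san values stand alone. The labels do not say that replicates were separate cultures, so p-values measure the spread between libraries, which may be technical.

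As background, a D-type cyclin binds CDK4 or CDK6, and the complex phosphorylates the retinoblastoma protein, which releases E2F factors that drive genes of DNA replication. INK4 proteins bind CDK4 and CDK6 and keep D-type cyclins off them. CIP/KIP proteins bind whole cyclin-CDK complexes, and they inhibit CDK2 with cyclin E or cyclin A. CDKN1A encodes p21, CDKN1B encodes p27 and CDKN1C p57, while CDKN2A, CDKN2B, CDKN2C and CDKN2D encode p16, p15, p18 and p19. A549 cells are known to carry a wild-type retinoblastoma gene and to have lost CDKN2A by deletion.

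The treated libraries held between 24560759 and 38008463 counts and the 3 vehicle libraries between 19833144 and 22327652, so the 2 sets do not overlap in depth. The share of counts on the 13 mitochondrial messenger RNAs was 6.22% to 9.89% in treated libraries and 10.5% to 10.9% in vehicle. Depth, this share and treatment therefore separate the same libraries, and in any comparison with vehicle they cannot be told apart. Library titles put Okbyeongpung-san replicate 3 and all of Soyo-san in batch D and all other libraries in batch E, with no statement of what the letters mean. Of the Okbyeongpung-san 500 µg/mL pair, replicate 2 was the deepest library and had the highest mitochondrial share of the treated libraries. The pair differed by a chi-square of 42.3 per degree of freedom over genes, against 2.07 to 19.2 in the other 23 replicate pairs. The epithelial markers KRT8 and KRT18 had medians of 3272 and 2499 CPM, which is the count scaled to the adjusted library total. The alveolar markers NKX2-1 and SFTPC had medians of 0 and 0.0556 CPM, and the immune markers PTPRC and CD3E had a median of 0.

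Scaled to the length of the longest annotated transcript, CCND1 was the most abundant of the 10 genes, with a median of 96.4 CPM per kb over the 30 libraries. It was followed by CCND3 at 72.7, CDKN1A at 38.6, CDKN1B at 13.9, CDKN2C at 6.04 and CDKN2D at 1.90 CPM per kb. CDKN1C stood at 0.125 and CCND2 at 0.00512 CPM per kb, and CDKN2A and CDKN2B had a median of 0. Neighbours in this order did not overlap across the 30 libraries from CCND1 to CCND2, except CCND3 and CDKN1A, whose ranges were 38.4 to 83.5 and 33.2 to 52.4 CPM per kb. The low end of the CCND3 range came from Soshiho-tang at 500 µg/mL. Of the INK4 family CDKN2C had the highest level per kb, and of the CIP/KIP family CDKN1A.

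CDKN2A and CDKN2B were in effect not detected. CDKN2B had 0 counts in all 30 libraries, which over 852283274 counts allows a level of up to 0.00352 CPM. CDKN2A had 3 counts, all in Okbyeongpung-san 500 µg/mL replicate 2, and 0 in the other 29 libraries, where 0 allows up to 0.157 CPM in the shallowest library. Limits of this kind cover counting error only. Neither gene was tested, and no treatment brought either to a measurable level.

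Genes on both sides of the pair were read. CDKN2A lies on GRCh38 chromosome 9 from 21967753 to 21995301 and CDKN2B from 22002903 to 22009363, both on the minus strand. The antisense genes CDKN2A-DT and CDKN2B-AS1, which adjoin or overlap them, also had 0 counts in all 30 libraries. MTAP, a methionine salvage gene that starts at 21802543, had 7 to 55 counts with a median of 14.5. Its highest value was again in Okbyeongpung-san 500 µg/mL replicate 2, and no other library passed 30 counts. The identifier ENSG00000264545, which runs from 21802636 to 22032986 on the plus strand across both CDKN2A and CDKN2B, had a median of 113.5 counts. It starts inside MTAP, which ends at 21937651 on the same strand. Gene counts do not say which part of this identifier was read, so they do not show RNA across CDKN2A and CDKN2B. Further out, KLHL9 had a median of 1496 counts and FOCAD 1711.5 on one side, and DMRTA1 had 48 and CAAP1 748.5 on the other. The interferon genes IFNB1 and IFNA1 had medians of 0 and 2, so low counts in the region were not confined to the pair. Of 10 tested neighbours, 3 rose and 1 fell at 500 µg/mL of Soshiho-tang against vehicle: DMRTA1 (1.15, adjusted p = 0.000536), FOCAD (0.37, adjusted p = 7.78e-07) and CAAP1 (0.33, adjusted p = 0.000702) rose and MLLT3 fell (-0.25, adjusted p = 0.00396), as log2 fold changes in edgeR's quasi-likelihood test. In this comparison 33.1% of all tested genes were called. CAAP1 already averaged 25.71 CPM at 20 µg/mL of Soshiho-tang, beside 21.52 CPM in vehicle. In CAAP1 every treated library of the series lay above every vehicle library, so its rise was not confined to this dose or extract. MLLT3 also fell at 500 µg/mL of Yijin-tang (-0.20, adjusted p = 0.036) and of Okbyeongpung-san (-0.38, adjusted p = 0.00141).

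**Figure D1:**
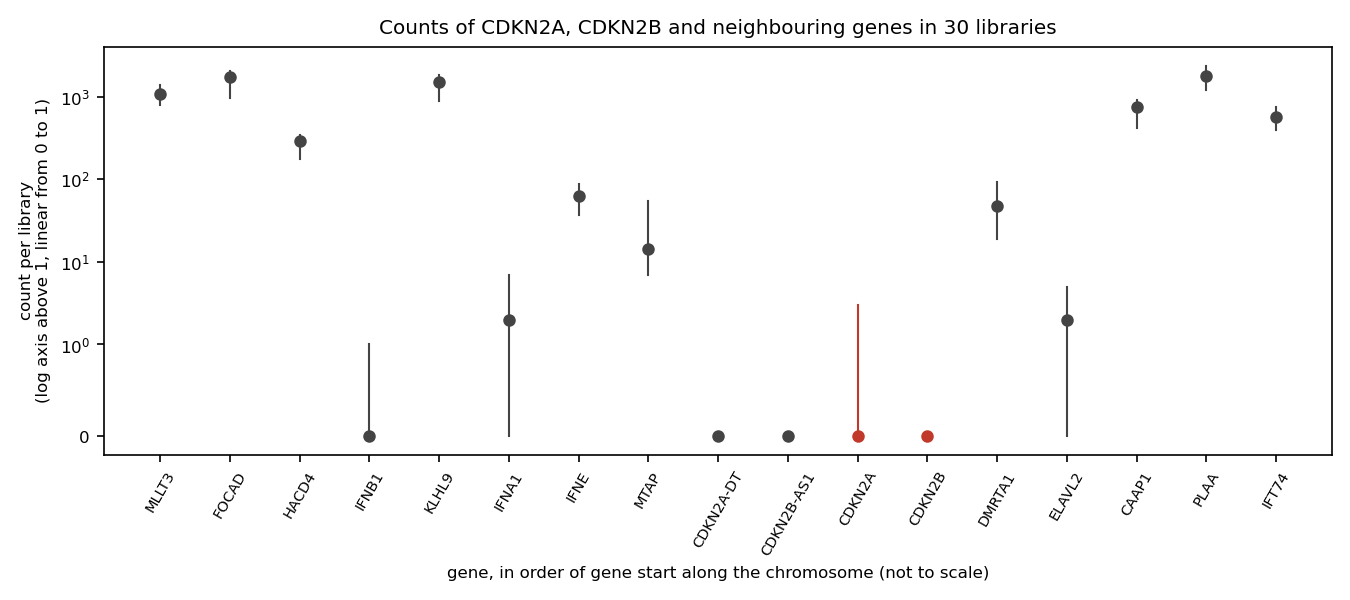
Counts per library of CDKN2A and CDKN2B (red) and 15 neighbouring genes (grey) in their order on the chromosome, with the median over 30 libraries as a point and the lowest to highest library as a line, on an axis that is logarithmic above 1. CDKN2B and both antisense genes lie at 0 in every library, while FOCAD, KLHL9, CAAP1 and PLAA each had at least 423 counts in every library.

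The largest changes among the 10 genes were falls of CCND3 and CDKN2C at 500 µg/mL of Soshiho-tang. CCND3 encodes cyclin D3, an activating partner of CDK4 and CDK6, and CDKN2C encodes p18, an inhibitor of the same kinases, so an activator and an inhibitor fell in the same libraries. The promoters of both are printed because the genes moved together, with that of CDKN1A, which moved the other way. Each is 300 bases from RefSeq (GRCh38.p14), from 250 bases before the annotated start to 50 bases after it, in the direction of the gene, and is one whose start lies within 100 bases of an annotated GENCODE 29 transcript start. Capitals mark the GC box GGGCGG, bound by Sp1-type factors, on either strand, with overlapping matches counted.
CCND3, upstream start, chr6:42048639-42048938, minus strand: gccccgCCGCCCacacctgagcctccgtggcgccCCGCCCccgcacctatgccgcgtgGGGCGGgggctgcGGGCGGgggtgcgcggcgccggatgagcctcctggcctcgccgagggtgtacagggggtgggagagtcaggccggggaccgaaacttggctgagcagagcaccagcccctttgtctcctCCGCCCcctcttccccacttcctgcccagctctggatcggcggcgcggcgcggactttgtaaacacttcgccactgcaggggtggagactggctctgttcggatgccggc
CCND3, downstream start, chr6:41941759-41942058, minus strand: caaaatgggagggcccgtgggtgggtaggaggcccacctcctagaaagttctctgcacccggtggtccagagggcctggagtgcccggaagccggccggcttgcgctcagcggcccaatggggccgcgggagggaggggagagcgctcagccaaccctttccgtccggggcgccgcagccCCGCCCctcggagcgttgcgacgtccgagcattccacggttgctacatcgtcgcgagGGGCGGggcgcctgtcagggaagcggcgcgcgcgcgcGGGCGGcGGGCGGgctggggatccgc
CDKN2C, upstream start, chr1:50960495-50960794, plus strand: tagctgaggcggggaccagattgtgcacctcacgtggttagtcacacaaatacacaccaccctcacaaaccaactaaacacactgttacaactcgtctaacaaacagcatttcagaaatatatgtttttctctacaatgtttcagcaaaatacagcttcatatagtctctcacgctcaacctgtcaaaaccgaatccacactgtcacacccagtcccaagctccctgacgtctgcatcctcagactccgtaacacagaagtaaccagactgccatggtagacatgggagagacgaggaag
CDKN2C, downstream start, chr1:50968456-50968755, plus strand: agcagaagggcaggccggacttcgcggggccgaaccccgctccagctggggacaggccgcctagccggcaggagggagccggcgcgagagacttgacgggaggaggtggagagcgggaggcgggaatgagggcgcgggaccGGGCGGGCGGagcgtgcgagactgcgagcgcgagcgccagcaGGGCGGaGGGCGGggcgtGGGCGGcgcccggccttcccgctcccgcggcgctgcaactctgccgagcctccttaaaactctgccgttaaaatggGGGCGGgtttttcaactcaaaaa
CDKN1A, chr6:36678464-36678763, plus strand: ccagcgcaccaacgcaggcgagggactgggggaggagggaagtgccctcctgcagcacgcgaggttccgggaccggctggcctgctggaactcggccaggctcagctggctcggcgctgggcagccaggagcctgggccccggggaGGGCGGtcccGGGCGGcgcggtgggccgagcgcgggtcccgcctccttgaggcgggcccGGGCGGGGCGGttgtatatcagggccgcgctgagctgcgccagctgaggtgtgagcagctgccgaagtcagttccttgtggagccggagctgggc
The GC box matched 5 times in the upstream and 4 times in the downstream CCND3 promoter, 0 and 6 times in those of CDKN2C, and 4 times in that of CDKN1A. At least 1 match is found in 45% of the 35116 promoters of this length. The E2F motif TTTNGCGC, the AP-1 motif TGANTCA, the C/EBP-ATF motif TGATGNAA and the TATA box TATAAA, searched on both strands, had no match in these 5 windows; they are found in 1.79%, 7.71%, 3.62% and 11.5% of promoters. The E-box CANNTG, left in lower case, matched in 4 of the 5 windows and in 68.7% of all promoters. The counts do not say which start is used, since reads are summed over a gene's transcripts.

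CCND3 had 182, 189 and 187 CPM in the vehicle libraries, 195, 199.9 and 186 CPM at 20 µg/mL of Soshiho-tang, 186, 174 and 182 CPM at 100 µg/mL and 101, 91.9 and 94.6 CPM at 500 µg/mL. The step came between 100 and 500 µg/mL, and the 500 µg/mL libraries lay below every other library of the series. Against vehicle CCND3 fell by 48.5% (log2 fold change -0.96, SE 0.06, adjusted p = 5.01e-11, edgeR's quasi-likelihood test with Benjamini-Hochberg adjustment over 17459 genes, as for every adjusted p below). Against 20 µg/mL of the same extract it fell by 50.5% (log2 fold change -1.01, SE 0.06, adjusted p = 1.64e-11) and against 100 µg/mL it fell by 46.9% (log2 fold change -0.91, SE 0.06, adjusted p = 1.39e-10). In bulk RNA, fewer cells that express a gene and less RNA of it per cell cannot be told apart. Only 154 of the 17459 genes fell further than CCND3 between 20 and 500 µg/mL of Soshiho-tang.

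CDKN2C followed the same course. It had 17.8, 18.9 and 18.6 CPM in vehicle, 17.5, 18.2 and 17.6 CPM at 20 µg/mL, 17.4, 16.9 and 17.1 CPM at 100 µg/mL and 7.93, 8.38 and 9.08 CPM at 500 µg/mL of Soshiho-tang. Again the 500 µg/mL libraries lay below all the others, and those at 20 and 100 µg/mL lay close to vehicle. CDKN2C fell by 53.9% against vehicle (log2 fold change -1.12, SE 0.08, adjusted p = 9.52e-11). It fell by 52.3% against 20 µg/mL (log2 fold change -1.07, SE 0.07, adjusted p = 1.28e-10) and fell by 50.4% against 100 µg/mL (log2 fold change -1.01, SE 0.07, adjusted p = 4.67e-10). Between 20 and 500 µg/mL 126 genes fell further. At 100 µg/mL neither gene passed the test against vehicle, with -0.04, adjusted p = 0.732 for CCND3 and -0.11, adjusted p = 0.377 for CDKN2C, as log2 fold changes.

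**Figure D2:**
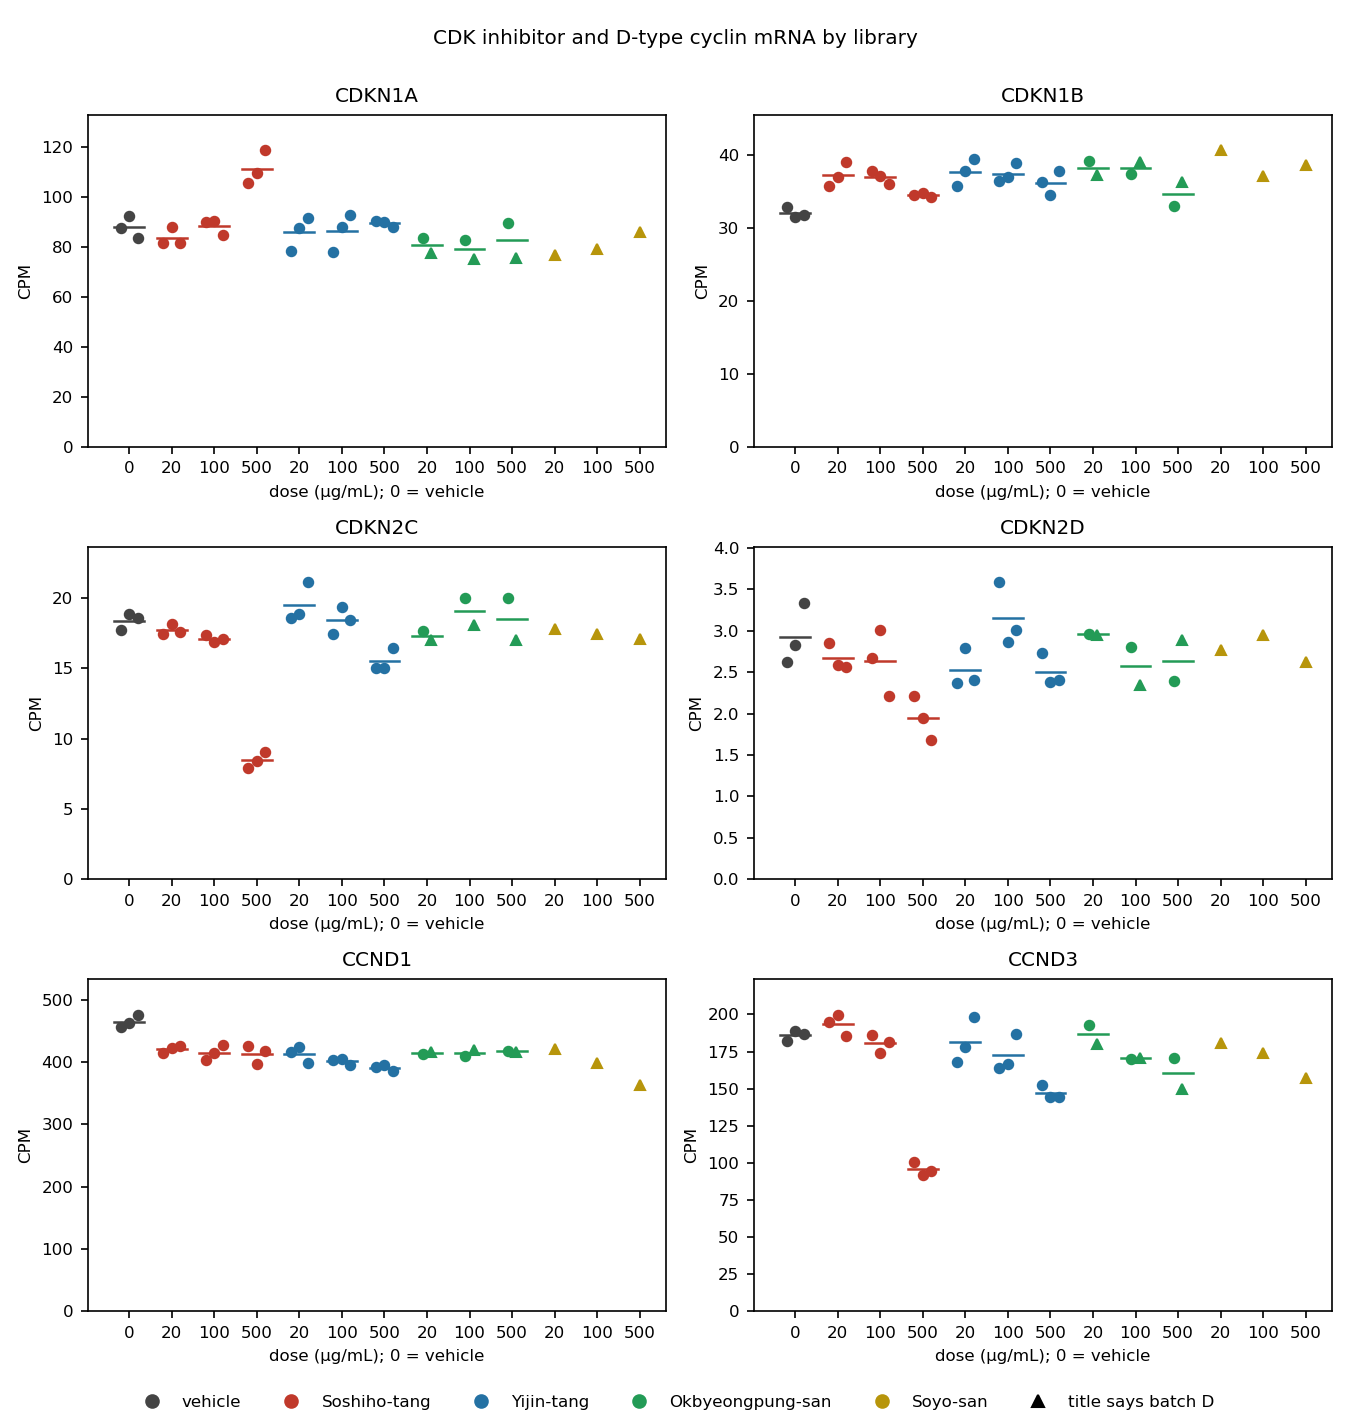
CPM of 6 of the genes in each library, by dose, with vehicle at the left of each panel, a horizontal line at the mean of each group of 2 or 3 libraries, and triangles for libraries whose titles say batch D. CCND3 and CDKN2C drop at 500 µg/mL of Soshiho-tang, where CDKN1A is at its highest, while CDKN1B lies above and CCND1 below vehicle in all 27 treated libraries.

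Yijin-tang gave a smaller fall of the same pair of genes. CCND3 had 168, 178 and 198 CPM at 20 µg/mL of Yijin-tang, 164, 166 and 187 CPM at 100 µg/mL and 152, 145 and 144 CPM at 500 µg/mL. CDKN2C had 18.6, 18.9 and 21.1 CPM, 17.4, 19.4 and 18.5 CPM and 15.0, 15.1 and 16.5 CPM at the same doses. For both genes the 500 µg/mL libraries lay below all libraries of the lower doses and of vehicle. Against vehicle CCND3 fell by 21% (log2 fold change -0.34, SE 0.06, adjusted p = 0.000785) and CDKN2C fell by 15.7% (log2 fold change -0.25, SE 0.07, adjusted p = 0.0208). The CDKN2C call was lost without vehicle replicate 2 (0.0816), vehicle replicate 3 (0.0688), Yijin-tang 500 replicate 1 (0.0803) or Yijin-tang 500 replicate 2 (0.0672), with the adjusted p in brackets, and with no filter on low counts (0.149). Against 20 µg/mL of Yijin-tang CCND3 fell by 19.1% (log2 fold change -0.31, SE 0.06, adjusted p = 0.012) and CDKN2C fell by 20.5% (log2 fold change -0.33, SE 0.07, adjusted p = 0.0151). Here the CCND3 call was lost without Yijin-tang 500 replicate 2 (0.0841), Yijin-tang 500 replicate 3 (0.0953) or Yijin-tang 20 replicate 3 (0.136), and the CDKN2C call without Yijin-tang 500 replicate 1 (0.103), Yijin-tang 500 replicate 2 (0.117) or Yijin-tang 20 replicate 3 (0.156). Fitted on these 2 doses alone, neither passed (adjusted p = 0.149 for CCND3 and 0.196 for CDKN2C).

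In Okbyeongpung-san at 500 µg/mL CCND3 passed the test against vehicle and CDKN2C did not, and the difference between the genes was not tested. CCND3 had 193 and 180.1 CPM at 20 µg/mL of Okbyeongpung-san, 170.0 and 171 CPM at 100 µg/mL and 171 and 149.9 CPM at 500 µg/mL, giving replicate 2 of batch E first and replicate 3 of batch D second. All libraries at 100 and 500 µg/mL lay below vehicle. At 500 µg/mL CCND3 fell by 13.6% against vehicle (log2 fold change -0.21, SE 0.07, adjusted p = 0.043). The call was lost without vehicle replicate 1 (0.0671), vehicle replicate 2 (0.103), vehicle replicate 3 (0.0905) or Okbyeongpung-san 500 replicate 3 (0.265), and with the batch letter in the fit (adjusted p = 0.112), no filter on low counts (0.101) or these 2 groups alone (0.138). Batch D holds no vehicle, and within batch E the extract has 1 library per dose, where the log2 fold change at 500 µg/mL was -0.13. CDKN2C had 17.6 and 17.0 CPM, 20.0 and 18.1 CPM and 20.0 and 17.0 CPM at these doses, and 500 µg/mL did not differ from vehicle beyond the spread (0.01, adjusted p = 0.939, 95% interval -0.15 to 0.17 on the log2 scale). In the single Soyo-san libraries CCND3 was 181, 174 and 157 CPM and CDKN2C was 17.8, 17.4 and 17.1 CPM, from 20 to 500 µg/mL.

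**Figure D3:**
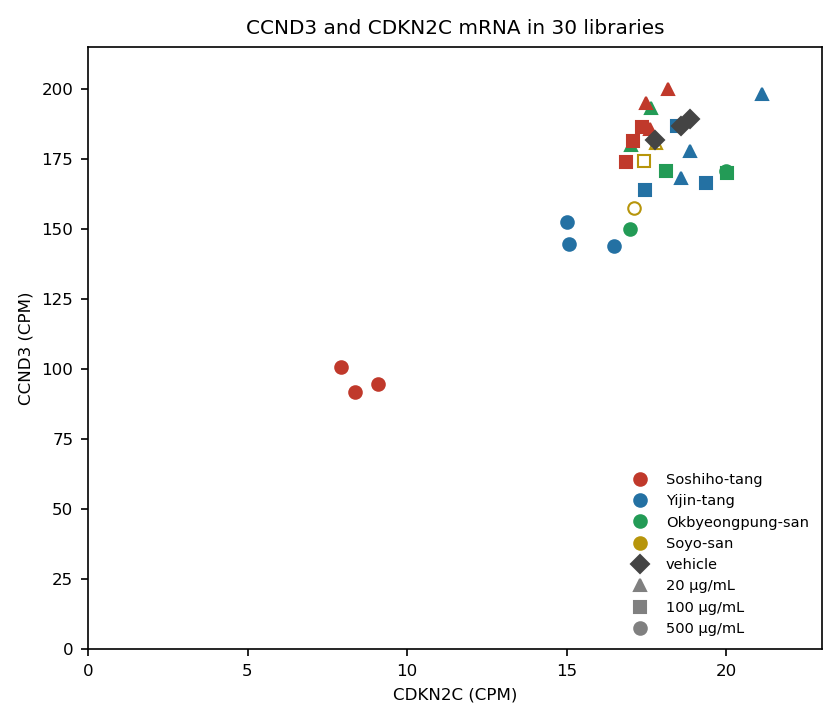
CCND3 against CDKN2C, in CPM, for each of the 30 libraries, with colour for the extract, shape for the dose and open symbols for Soyo-san. The 3 libraries of Soshiho-tang at 500 µg/mL stand apart at 91.9 to 101 CPM of CCND3 and 7.93 to 9.08 CPM of CDKN2C, and the 3 of Yijin-tang at 500 µg/mL have the next lowest CDKN2C.

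The balance of the D-type cyclins was read from CCND1 and CCND3. CCND3 made up 29.4% ± 0.46 of the summed CCND1 and CCND3 level per kb at 500 µg/mL of Soshiho-tang, against 41.9% ± 0.481 in vehicle (SD, n = 3 each). The share was 45.3% ± 1.16 at 20 µg/mL and 43.9% ± 1.25 at 100 µg/mL of Soshiho-tang. It was 40.4% ± 0.733 at 500 µg/mL of Yijin-tang (n = 3) and 40.8% ± 2.17 at 500 µg/mL of Okbyeongpung-san (n = 2). Across the 30 libraries the share at 500 µg/mL of Soshiho-tang stood below all the others; it is a description, and the tests are those of the single genes.

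CDKN2D, the INK4 gene for p19, was low. It had 2.62, 2.83 and 3.34 CPM in vehicle, 2.85, 2.58 and 2.57 CPM at 20 µg/mL, 2.67, 3.01 and 2.21 CPM at 100 µg/mL and 2.22, 1.94 and 1.67 CPM at 500 µg/mL of Soshiho-tang. The 500 µg/mL libraries lay below those of vehicle and of 20 µg/mL, and 1 of them overlapped the 100 µg/mL group. Against vehicle CDKN2D fell by 33.9% (log2 fold change -0.60, SE 0.15, adjusted p = 0.0035) and against 20 µg/mL it fell by 27.1% (log2 fold change -0.46, SE 0.15, adjusted p = 0.0267). The second call was lost without Soshiho-tang 20 replicate 1 (0.0946), Soshiho-tang 500 replicate 2 (0.0729), Soshiho-tang 20 replicate 2 (0.0578) or Soshiho-tang 500 replicate 3 (0.134), and with DESeq2 (adjusted p = 0.0728), no filter on low counts (0.0735) or these 2 groups alone (0.0531). Against 100 µg/mL it passed narrowly (-0.43, adjusted p = 0.047) and was lost in 9 of 13 alternatives, among them without Soshiho-tang 100 replicate 1 (0.109), Soshiho-tang 500 replicate 2 (0.114), Soshiho-tang 100 replicate 2 (0.209) or Soshiho-tang 500 replicate 3 (0.201). At 500 µg/mL of Yijin-tang CDKN2D did not pass against vehicle (-0.23, adjusted p = 0.3), nor at 500 µg/mL of Okbyeongpung-san (-0.16, adjusted p = 0.535). The 3 Soyo-san libraries held 2.76, 2.95 and 2.62 CPM from 20 to 500 µg/mL.

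CDKN1A rose at 500 µg/mL of Soshiho-tang while CDKN2C and CDKN2D fell. It had 87.5, 92.4 and 83.4 CPM in vehicle, 81.4, 87.8 and 81.4 CPM at 20 µg/mL, 89.7, 90.2 and 84.7 CPM at 100 µg/mL and 106, 109 and 119 CPM at 500 µg/mL. The 500 µg/mL libraries were the 3 highest of the series. The rise over vehicle was 27% (log2 fold change 0.34, SE 0.07, adjusted p = 0.000715), and over 20 µg/mL it was 33.2% (log2 fold change 0.41, SE 0.07, adjusted p = 0.000154). It is a modest change among all genes: 3061 of the 17459 rose further against vehicle.

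Neither Yijin-tang nor Okbyeongpung-san passed the test for CDKN1A against vehicle at any dose. In Yijin-tang at 20, 100 and 500 µg/mL it averaged 86.0 ± 6.76, 86.2 ± 7.63 and 89.5 ± 1.41 CPM, beside 87.7 ± 4.52 CPM in vehicle (SD, n = 3 each). In Okbyeongpung-san, replicate 3 of batch D was below replicate 2 of batch E at every dose, with 83.7 and 77.5 CPM at 20 µg/mL, 82.7 and 75.3 CPM at 100 µg/mL and 89.6 and 75.6 CPM at 500 µg/mL, replicate 2 first. The part of the batch letter in that gap was not tested. Soyo-san, all of batch D, gave 76.6, 79.1 and 86.1 CPM.

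CDKN1B, the gene for p27, was higher than vehicle in each of the 27 treated libraries. Treated libraries ran from 32.9 CPM through a median of 37.1 to 40.7 CPM, and the vehicle libraries had 32.8, 31.4 and 31.7 CPM. The groups do not overlap, but the lowest treated library, Okbyeongpung-san 500 µg/mL replicate 2, lay only just above the highest vehicle library. At 20 µg/mL of Yijin-tang 2517 of the 17459 genes rose further against vehicle than CDKN1B. CDKN1B rose against vehicle at 20 µg/mL of Soshiho-tang (0.22, adjusted p = 0.0135), Yijin-tang (0.23, adjusted p = 0.00704) and Okbyeongpung-san (0.26, adjusted p = 0.00766), as log2 fold changes. It also rose at 100 µg/mL of Soshiho-tang (0.21, adjusted p = 0.0163), Yijin-tang (0.23, adjusted p = 0.00668) and Okbyeongpung-san (0.26, adjusted p = 0.00894). The 500 µg/mL dose passed for Yijin-tang (0.18, adjusted p = 0.0274) and not for Soshiho-tang (0.11, adjusted p = 0.123) or Okbyeongpung-san (0.11, adjusted p = 0.201). No extract passed for 500 against 20 µg/mL, with log2 differences of -0.11, -0.06 and -0.14 in the same order of extracts as at 20 µg/mL. Calls at 20 µg/mL were lost for Soshiho-tang without vehicle replicate 2 (0.0612), vehicle replicate 3 (0.0571) or Soshiho-tang 20 replicate 3 (0.0587), for Yijin-tang without Yijin-tang 20 replicate 3 (0.0588) and for Okbyeongpung-san without Okbyeongpung-san 20 replicate 2 (0.114) or Okbyeongpung-san 20 replicate 3 (0.0513). Calls at the higher doses were lost for Soshiho-tang 100 without vehicle replicate 2 (0.0684), vehicle replicate 3 (0.0635), Soshiho-tang 100 replicate 1 (0.0698) or Soshiho-tang 100 replicate 2 (0.0537), for Okbyeongpung-san 100 without Okbyeongpung-san 100 replicate 2 (0.0647) or Okbyeongpung-san 100 replicate 3 (0.111) and for Yijin-tang 500 without vehicle replicate 2 (0.0931), vehicle replicate 3 (0.0833), Yijin-tang 500 replicate 1 (0.0688) or Yijin-tang 500 replicate 3 (0.129). With no filter on low counts the calls at Soshiho-tang 100 (0.053) and Yijin-tang 500 (0.0689) were lost. In all, the Yijin-tang 500 call was lost in 6 of 13 alternatives.

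CCND1, the gene for cyclin D1, showed the opposite offset. The treated libraries ran from 363 CPM through a median of 414 to 427 CPM, and vehicle had 456, 463 and 476 CPM. All 27 treated libraries lay below all 3 of vehicle, and the lowest was Soyo-san at 500 µg/mL. How many of all genes part the treated from the vehicle libraries in this way was not counted. CCND1 fell in all 9 comparisons of a replicated extract and dose with vehicle. It fell by 9.43% at 20 µg/mL of Soshiho-tang, the smallest of the 9 values, and fell by 16% at 500 µg/mL of Yijin-tang, the largest (log2 fold change -0.25, SE 0.04, adjusted p = 0.000168). Even there 2777 of the 17459 genes fell further than CCND1. With Soshiho-tang at 500 µg/mL it fell by 11.1% (log2 fold change -0.17, SE 0.04, adjusted p = 0.00166), a far smaller change than that of CCND3. Dose made no called difference: 500 against 20 µg/mL gave -0.03, adjusted p = 0.7 for Soshiho-tang, -0.08, adjusted p = 0.644 for Yijin-tang and 0.01, adjusted p = 0.959 for Okbyeongpung-san. The 95% interval of the Soshiho-tang difference, -0.11 to 0.05 on the log2 scale, excludes a change of the size seen in CCND3. CCND1 calls against vehicle were lost at Soshiho-tang 20 without vehicle replicate 2 (0.0729), vehicle replicate 3 (0.118), Soshiho-tang 20 replicate 1 (0.103) or Soshiho-tang 20 replicate 2 (0.0675), at Soshiho-tang 100 without vehicle replicate 3 (0.0577) or Soshiho-tang 100 replicate 1 (0.0583), and at Yijin-tang 20 without Yijin-tang 20 replicate 3 (0.0516). For Okbyeongpung-san they were lost at 20 without vehicle replicate 2 (0.0505), vehicle replicate 3 (0.0783), Okbyeongpung-san 20 replicate 2 (0.169) or Okbyeongpung-san 20 replicate 3 (0.137), at 100 without vehicle replicate 3 (0.0753), Okbyeongpung-san 100 replicate 2 (0.209) or Okbyeongpung-san 100 replicate 3 (0.0878) and at 500 without vehicle replicate 3 (0.0767) or Okbyeongpung-san 500 replicate 2 (0.0866). With no filter on low counts the CCND1 call held only at 100 and 500 µg/mL of Yijin-tang among the 9. In all, the CCND1 call was lost in 3 of 13 alternatives at Yijin-tang 20 and in 4 of 12 at Okbyeongpung-san 500. CCND1 had an expected count that was not a whole number in each of the 30 libraries, and LTO1, with a median of 618 counts, overlaps it on the opposite strand. The strand setting of the counting is not stated.

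CDKN1C and CCND2 were near the limit of detection. CDKN1C, the gene for p57, had 208 counts in all and at most 12 in a library, with levels of 0.0639 to 0.475 CPM in treated libraries and 0.188 to 0.262 CPM in vehicle. It passed the filter on low counts but no test, and its intervals were wide: at 500 µg/mL of Soshiho-tang against vehicle the 95% interval of the log2 fold change ran from -1.33 to 0.98. CCND2, the gene for cyclin D2, had 35 counts in all, at most 3 in a library, in 23 of the 30 libraries. It was not tested, and a small difference between groups would not have been detectable at this depth.

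Of the 10 genes 7 passed the filter on low counts. With Soshiho-tang at 500 µg/mL against vehicle 5 of these were called, 1 higher and 4 lower, where 33.1% of all tested genes were called. Against 20 µg/mL 4 were called, 1 higher and 3 lower, with 20.6% of all genes, and against 100 µg/mL again 4, with 16.7%. With Yijin-tang at 500 µg/mL 4 were called against vehicle, 1 higher and 3 lower, beside 15.7% of all genes. Relative to 20 µg/mL of Yijin-tang 2 were called, CCND3 and CDKN2C, although only 0.705% of all genes were. Against 100 µg/mL none of the 7 was called by edgeR or DESeq2, 3 had an unadjusted p below 0.05, and 0.103% of all genes were called. With Okbyeongpung-san at 500 µg/mL 2 were called against vehicle, CCND1 and CCND3, beside 14.9% of all genes. Against 20 µg/mL of Okbyeongpung-san 0 were called by edgeR or DESeq2, 2 had an unadjusted p below 0.05, and 1.59% of all genes were called.

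At 20 and 100 µg/mL each of the 3 extracts gave 2 called genes against vehicle, CDKN1B higher and CCND1 lower. The share of all genes called was 8.02% and 10.8% for Soshiho-tang, 10.2% and 14.7% for Yijin-tang, and 10.2% and 9.49% for Okbyeongpung-san, at 20 and 100 µg/mL. These comparisons share the 3 vehicle libraries, so the recurrence is no independent repeat. All comparisons of 1 dose with another avoid vehicle, and CDKN1B and CCND1 were called in none of those run.

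**Figure D4:**
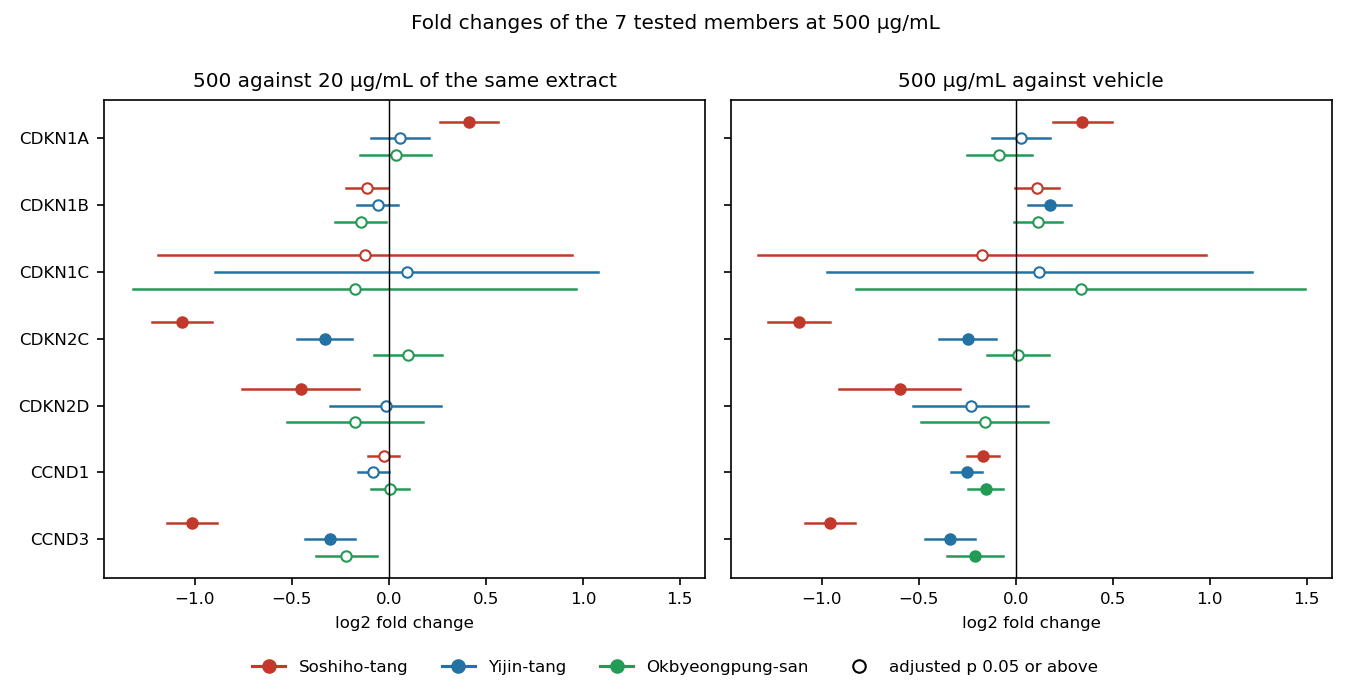
Log2 fold change of the 7 tested genes at 500 µg/mL against 20 µg/mL of the same extract (left) and against vehicle (right), with 95% intervals; filled points have an adjusted p below 0.05. CCND3 and CDKN2C of Soshiho-tang lie near -1 in both panels, CCND1 lies at or near 0 on the left and below 0 on the right for all 3 extracts, and CDKN1C has the widest intervals.

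The extracts were then compared directly at 500 µg/mL. CCND3 averaged 95.8 ± 4.6 CPM in Soshiho-tang and 147 ± 4.67 CPM in Yijin-tang (SD, n = 3 each; log2 fold change -0.62, SE 0.06, adjusted p = 1.7e-07). CDKN2C averaged 8.46 ± 0.578 CPM in Soshiho-tang and 15.5 ± 0.83 CPM in Yijin-tang (log2 fold change -0.87, SE 0.07, adjusted p = 1.05e-08). CDKN1A was higher in Soshiho-tang than in Yijin-tang (0.32, adjusted p = 0.0036), so 3 of the 7 genes were called, beside 12.6% of all genes. Against Okbyeongpung-san the same 3 were called, beside 18.7% of all genes: CCND3 (-0.74, adjusted p = 3.82e-08), CDKN2C (-1.13, adjusted p = 5.54e-10) and CDKN1A (0.43, adjusted p = 0.00057). Fitted on these 2 groups alone, the CDKN1A difference was lost (adjusted p = 0.0523). CCND1, CDKN1B, CDKN1C and CDKN2D were called in neither comparison.

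The change from 20 to 500 µg/mL itself differed between extracts. For CCND3 the log2 change of Soshiho-tang minus that of Yijin-tang was -0.71, adjusted p = 1e-05, and for CDKN2C -0.74, adjusted p = 4.34e-05. For CDKN1A it was 0.36, adjusted p = 0.045, and 4.04% of all genes were called for this difference. Minus the change of Okbyeongpung-san the values were -0.80, adjusted p = 1.1e-05 for CCND3, -1.16, adjusted p = 3.05e-07 for CDKN2C and 0.38, adjusted p = 0.0444 for CDKN1A, beside 7.01% of all genes. The CCND3 and CDKN2C differences passed without any 1 library. That of CDKN1A from Okbyeongpung-san was lost in 9 of 17 alternatives. The CDKN1A difference from Yijin-tang was lost without Soshiho-tang 20 replicate 1 (0.105), Yijin-tang 500 replicate 1 (0.0745), Soshiho-tang 500 replicate 2 (0.0768), Yijin-tang 500 replicate 2 (0.0798), Yijin-tang 20 replicate 2 (0.0898), Soshiho-tang 500 replicate 3 (0.129), Soshiho-tang 20 replicate 3 (0.108), Yijin-tang 500 replicate 3 (0.0993) or Yijin-tang 20 replicate 3 (0.12). Its difference from Okbyeongpung-san was lost without Okbyeongpung-san 20 replicate 2 (0.169), Okbyeongpung-san 500 replicate 3 (0.109), Okbyeongpung-san 20 replicate 3 (0.0754), Soshiho-tang 20 replicate 1 (0.0882), Soshiho-tang 500 replicate 2 (0.0623), Soshiho-tang 20 replicate 2 (0.0511), Soshiho-tang 500 replicate 3 (0.107) or Soshiho-tang 20 replicate 3 (0.0904).

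The kinases, E2F factors and other genes around these regulators were listed with earlier results of these data known, and their counts are descriptions. Under Soshiho-tang at 500 µg/mL against vehicle, 5 of 12 genes of the retinoblastoma axis were called, 1 higher and 4 lower, with a median log2 fold change of -0.09 beside 0.01 over all genes, where 33.1% of all genes were called. Of the partner kinases of the D-type cyclins, CDK4 rose (0.20, adjusted p = 0.0175) and CDK6 fell (-0.50, adjusted p = 0.00658). CDK6 averaged 137 CPM in vehicle, 118 CPM at 20 µg/mL and 96.7 CPM at 500 µg/mL of Soshiho-tang. Every treated library of the series, of any extract and dose, lay below every vehicle library in CDK6. The E2F partner TFDP1 (-0.30, adjusted p = 2.29e-05), E2F2 (-0.26, adjusted p = 0.0229) and E2F1 (-0.23, adjusted p = 0.0421) also fell at 500 µg/mL of Soshiho-tang against vehicle. Of the 8 genes around CDK2, the kinase that p21 and p27 inhibit, 2 rose and 5 fell, with a median of -0.17. Its cyclins CCNE2 (-0.64, adjusted p = 0.000168) and CCNA2 (-0.51, adjusted p = 9.4e-09) fell, as did its activating phosphatase CDC25A (-0.37, adjusted p = 8.61e-05), while CCNH, a subunit of the CDK-activating kinase, rose (0.25, adjusted p = 0.012). Against 20 µg/mL of Soshiho-tang, 1 of the 12 fell, TFDP1 (-0.24, adjusted p = 0.000317), and 5 of the 8, among them CCNA2 (-0.55, adjusted p = 3.15e-09), CCNE2 (-0.53, adjusted p = 0.00133), CDC25A (-0.42, adjusted p = 2.11e-05) and CCNE1 (-0.29, adjusted p = 0.00455), beside 20.6% of all genes called.

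Genes of cell division moved with CCND3 and CDKN2C. All 10 genes of the proliferation list fell at 500 µg/mL of Soshiho-tang against vehicle, with a median of -0.32, and all 10 fell against 20 µg/mL, with a median of -0.33. Of all tested genes 33.1% were called against vehicle, 16% as lower, and 20.6% against 20 µg/mL, 10.2% as lower. MKI67 averaged 388 CPM at 500 µg/mL and 838 CPM in vehicle (-1.11, adjusted p = 3.42e-09), and the mitotic kinase AURKA fell as well (-0.74, adjusted p = 6.98e-10). TOP2A (-0.40, adjusted p = 1.34e-05) and CCNB1 (-0.37, adjusted p = 3.42e-05) also fell. Relative to 20 µg/mL, MKI67 (-0.75, adjusted p = 2.32e-06), AURKA (-0.67, adjusted p = 4.13e-09), CDK1 (-0.41, adjusted p = 0.000168) and CCNB1 (-0.34, adjusted p = 0.000118) led the list. The part of these changes in the falls of CCND3 and CDKN2C was not tested. Under Yijin-tang at 500 µg/mL, 2 of the 10 fell against vehicle, MKI67 (-0.52, adjusted p = 0.00069) and AURKA (-0.24, adjusted p = 0.00507), beside 15.7% of all genes called. Under Okbyeongpung-san at 500 µg/mL, 3 of the 10 fell against vehicle, MKI67 (-0.48, adjusted p = 0.00503), AURKA (-0.31, adjusted p = 0.00314) and TOP2A (-0.28, adjusted p = 0.00671), beside 14.9% of all genes. The TOP2A call was lost without Okbyeongpung-san 500 replicate 2 (0.201). MKI67 was already lower than vehicle at 20 µg/mL, with means of 633 CPM in Yijin-tang (-0.41, adjusted p = 0.00746) and 653 CPM in Okbyeongpung-san (-0.36, adjusted p = 0.0318). At 20 µg/mL of Soshiho-tang its mean was 651 CPM, and every treated library of the series lay below every vehicle library. The list as a whole was not lower: in Yijin-tang and in Okbyeongpung-san 1 of the 10 was called lower and 1 higher at 20 µg/mL. The list medians were 0.02 and 0.02, and 10.2% of all genes were called in each. In Soshiho-tang at 20 µg/mL 1 was called lower and 0 higher, with a list median of -0.004, beside 8.02% of all genes. CDK1 averaged 105 CPM in vehicle, 125 CPM at 20 µg/mL of Yijin-tang and 136 CPM at 20 µg/mL of Okbyeongpung-san. For 500 against 20 µg/mL, 0 of the 10 were called by edgeR in Yijin-tang, where 1 had an unadjusted p below 0.05 and DESeq2 called 0. There edgeR called 0.705% of all genes. In Okbyeongpung-san edgeR likewise called 0 of the 10, 5 had an unadjusted p below 0.05 and DESeq2 called 1. Here edgeR called 1.59% of all genes.

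Factors that act on the proteins or genes of the family were listed in the same way. Of the 10 genes for the turnover of D-type cyclins and p27, 1 rose and 1 fell at 500 µg/mL of Soshiho-tang against vehicle, where 33.1% of all genes were called. FBXO4, a ubiquitin ligase subunit known for cyclin D1 turnover, rose (0.70, adjusted p = 4.29e-07), and SKP2, the subunit that targets p27, fell (-0.52, adjusted p = 8.83e-06). The same 2 were called against 20 µg/mL, FBXO4 (0.36, adjusted p = 0.00106) and SKP2 (-0.40, adjusted p = 0.000275), beside 20.6% of all genes. With Yijin-tang at 500 µg/mL 3 of the 10 rose against vehicle, FBXO4 (0.43, adjusted p = 0.0012), RBX1 (0.41, adjusted p = 0.0345) and SKP1 (0.24, adjusted p = 0.00242), beside 15.7% of all genes, and at 100 µg/mL 4 rose, beside 14.7%. SKP1 averaged 206 CPM in vehicle, 237 CPM at 20 µg/mL and 242 CPM at 500 µg/mL, and RBX1 averaged 25.2 CPM in vehicle, 32.4 CPM at 20 µg/mL and 33.7 CPM at 500 µg/mL. For 500 against 20 µg/mL of Yijin-tang edgeR and DESeq2 each called 0 of the 10, and 1 had an unadjusted p below 0.05. There edgeR called only 0.705% of all genes, so 0 of 10 says little about this list. Of 15 transcription and chromatin factors 1 rose and 2 fell at 500 µg/mL of Soshiho-tang against vehicle. EZH2, a Polycomb methyltransferase known to silence CDKN2A, fell at 500 µg/mL of Soshiho-tang (-0.42, adjusted p = 3.2e-06) and of Yijin-tang (-0.23, adjusted p = 0.00719) against vehicle. FOXO1, whose product can activate CDKN1B, fell (-0.29, adjusted p = 0.0468) and the Polycomb gene BMI1 rose (0.20, adjusted p = 0.0129) at 500 µg/mL of Soshiho-tang, and KLF4 fell at 500 µg/mL of Yijin-tang (-0.34, adjusted p = 0.0167). For 500 against 20 µg/mL of Yijin-tang edgeR and DESeq2 each called 0 of the 15, and 4 had an unadjusted p below 0.05, beside 0.705% of all genes called by edgeR. EZH2 averaged 43.0 CPM in vehicle, 39.6 CPM at 20 µg/mL and 36.8 CPM at 500 µg/mL of Yijin-tang. KLF4 averaged 8.31, 8.26 and 6.58 CPM in the same groups. From 20 to 500 µg/mL of Soshiho-tang, MYC (0.30, adjusted p = 0.00172) and KLF6 (0.22, adjusted p = 0.00143) rose and EZH2 fell (-0.26, adjusted p = 0.00122). With Okbyeongpung-san at 500 µg/mL, CDK6 (-0.47, adjusted p = 0.0423), CCNA2 (-0.16, adjusted p = 0.0338) and GSK3B, a kinase that marks cyclin D1 for turnover (-0.36, adjusted p = 0.0341), fell against vehicle. In CDK6 and GSK3B every treated library of the series lay below every vehicle library. At 20 µg/mL of Okbyeongpung-san CDK6 averaged 111 CPM and GSK3B 85.7 CPM, beside 137 and 93.9 CPM in vehicle. At 500 µg/mL CDK6 had 82.4 CPM in replicate 2 and 115 CPM in replicate 3, and GSK3B had 66.1 and 80.1 CPM. Without replicate 2 none of these calls held, with an adjusted p of 0.457 for CDK6, 0.407 for CCNA2 and 0.351 for GSK3B. The CDK6 and GSK3B calls were also lost without any 1 vehicle library (0.0785 to 0.0989 for CDK6 and 0.0659 to 0.0765 for GSK3B), and that of CCNA2 without vehicle replicate 1 (0.08) or 2 (0.102).

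Among the genes whose mean log2 CPM over the 13 groups followed CDKN1A most closely, of 11357 genes with a symbol and enough signal, were VIPAS39 (Pearson r = 0.96), HOXB9 (0.96), NIPAL4 (0.96) and WARS1 (0.96). For CCND1 they were PTPRJ (r = 0.93), UBE2D3 (0.91), GPRC5A (0.89), MIR23AHG (0.87) and MORF4L1P1 (0.87). These correlations describe 13 group means of 1 to 3 libraries, which share depth and, for CDKN1A, lean on the 1 group in which it was high.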

How the data were processed

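RNA from A549 cells was sequenced after 24 h of treatment, with a directional messenger RNA kit and 100 bp read pairs per the labels' protocols. The authors deposited expected counts per gene, made with RSEM 1.3.3 after STAR 2.7.3a (with Trim Galore 0.6.5 and FastQC 0.11.9) on hg38 or GRCh38, per the submitters' processing notes. The annotation release and strand setting are not given in the sources used here. The table held 60675 identifiers and 30 columns that matched libraries. Its 30 empty columns were left out. Symbols, positions and lengths come from a gene name table and GENCODE 29, promoters from RefSeq GRCh38.p14; 7 of the 10 genes had a promoter there, in 12 windows. Expected counts were rounded.

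All 10 groups that have 2 or 3 libraries, 27 libraries in all, entered 1 joint model in edgeR 4.0.16 under R 4.3.3 (TMM, filterByExpr, glmQLFit, glmQLFTest), leaving 17459 genes. Calls use a threshold of 0.05 on the p adjusted by the Benjamini-Hochberg method across these genes. CPM are on TMM-scaled totals, and SE is the size of the log2 fold change over the root of F. Library totals were 19833144 to 38008463 counts. The common dispersion was 0.00474. Soyo-san, with 1 library per dose, was not fitted.

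Alternatives were DESeq2 1.42.0 and its size factors, no filter, a replicate block, the batch letter, transcript length offsets, the compared groups alone and leaving out each library. The comparisons of 500 with 100 µg/mL, and of the dose change of Soshiho-tang with that of Okbyeongpung-san, were added after seeing the data. The members and all gene lists were chosen with earlier results of these data known. Named were all 10 members, up to 4 called genes per list with the largest fold change in each comparison at 500 µg/mL, and the 5 genes most like CDKN1A and CCND1 in group means, among genes with a mean log2 CPM of at least 2; some genes that this rule names are not reported here. The fit was run on simulated data with known changes, for Soshiho-tang at 500 µg/mL against vehicle only and with the same dispersion for every gene. Changes as small as those of CCND1 and CDKN1B, and groups of 2 libraries, were not checked in this way. Replicate numbers were not used to pair the libraries. Of 43 pairs of libraries with the same number, 5 had deviations that correlated above 0.1, all 5 between doses of Soshiho-tang or of Yijin-tang. No replicate pair agreed within sampling noise.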

Additional observations from a re-analysis of the deposited data

Results flagged for a closer look

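The change from 20 to 500 µg/mL differed between extracts, by a test of the difference itself, for 3 genes. Soshiho-tang minus Yijin-tang, the differences of log2 fold changes were 0.36 for CDKN1A, -0.74 for CDKN2C and -0.71 for CCND3. Soshiho-tang minus Okbyeongpung-san they were 0.38 for CDKN1A, -1.16 for CDKN2C and -0.80 for CCND3.

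The Soyo-san libraries, which no comparison used, had CDKN1B at 40.7 CPM at 20 µg/mL, 37.1 CPM at 100 µg/mL and 38.7 CPM at 500 µg/mL, above the highest vehicle library at 32.8 CPM. With 1 library per dose there is no replicate check. All Soyo-san libraries are of batch D, which holds no vehicle, and depth and mitochondrial share also separate them from vehicle. Only values above vehicle were looked for. CCND1 lay below vehicle in the same libraries, at 421, 398 and 363 CPM from 20 to 500 µg/mL.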

How the results depend on the processing

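None of the 45 called values changed sign under any alternative run; values that were not called were not followed. The falls of CCND3 and CDKN2C at 500 µg/mL of Soshiho-tang against vehicle, the lower doses and the other extracts stayed past the threshold in every alternative run, as did CDKN1A against vehicle, 20, 100 µg/mL and Yijin-tang. Of 45 called values, 45 stayed called with DESeq2 size factors, 43 with DESeq2's Wald test, 43 with a length offset, 43 with the batch letter, 36 in fits of the compared groups alone and 32 with no filter on low counts. Leaving out 1 library kept 220 of 291. The cause of each loss was not tested. Where a fit left 1 library in a group, it is assumed to vary like the other groups.

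With no filter, the number of called genes among the 10 was 1 at Soshiho-tang 20, 0 at Soshiho-tang 100, 1 at Yijin-tang 20, 2 at Yijin-tang 500, 1 at Okbyeongpung-san 20, 1 at 100 and 0 at 500 µg/mL, all against vehicle. In fits of the compared groups alone it was 1 at Yijin-tang 20, 4 at Okbyeongpung-san 100 and 0 at Okbyeongpung-san 500 against vehicle, and 0 for Yijin-tang 500 against 20. These fits also moved the number called over all genes, to 1564 from 1789 at Yijin-tang 20, 4573 from 1656 at Okbyeongpung-san 100, 436 from 2610 at Okbyeongpung-san 500 and 54 from 123 for Yijin-tang 500 against 20. With the batch letter it was 1 at Okbyeongpung-san 500. Leaving out each library gave 0 to 2 at Soshiho-tang 20 and 100, Yijin-tang 20 and Okbyeongpung-san 20 and 100, 2 to 4 at Yijin-tang 500 and 0 to 1 at Okbyeongpung-san 500 against vehicle, 0 to 2 for Yijin-tang 500 against 20 and 0 to 1 for Okbyeongpung-san 500 against 20.

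With the replicate number as a block, all 45 called values stayed called; Soshiho-tang 500 against vehicle kept 5 of the genes and called 6065 genes in all, against 5783 without the block. What a shared number stands for was not tested. In 1 of 11 comparisons of groups of 3, Yijin-tang 500 against 20, 3 of 3 libraries correlated best with their own number. For Soshiho-tang 500 it was 2 of 3 against vehicle, against 20 and against 100 µg/mL. Correlations of paired deviations ran from -0.15 to 0.24. Depth limits CDKN1C, CCND2, CDKN2A and CDKN2B, for which a small difference would not have been detectable.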
